A study of Mus musculus with 8 samples.

Results

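Ankrd1, Ankrd2, Ankrd23, Xirp1, Xirp2, Csrp3, Nrap, Tcap, Fhl1 and Fhl2 encode muscle proteins of the Z-disc, the I-band and the intercalated disc that are known to respond to mechanical load. They were taken by name from a table of 13677 genes measured by RNA sequencing of mouse ventricular heart, and all 10 were present. The 8 libraries fall into the groups C (n = 3), KO (n = 2, numbered 1 and 3) and DKO (n = 3), as the labels name them. The series sets ventricles deficient in Vhl against wild-type ventricles in a Wt1-Cre mouse model. Wt1 is best known in the heart from the epicardium, and the labels do not say which share of cells lost Vhl. The Vhl protein directs hypoxia-inducible factors to degradation when oxygen is present. No treatment was given, per the labels. The labels neither spell out C, KO and DKO nor name the second change of DKO, and they give no age, strain, sex or source animal for any group. Directions are therefore between libraries carrying these labels, and p-values measure only the spread between the samples, which may be technical.

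The Z-disc anchors actin filaments and the giant spring protein titin at the ends of each sarcomere, the contractile unit of muscle. Proteins at this site sense stretch, and several of them shuttle to the nucleus when load rises. The muscle ankyrin repeat proteins Ankrd1 (CARP), Ankrd2 (ARPP) and Ankrd23 (DARP) bind the N2A segment of titin in the I-band. Tcap (telethonin) caps the end of titin in the Z-disc, Csrp3 (muscle LIM protein) sits beside it, and Fhl1 and Fhl2 are LIM proteins that bind titin springs. Nrap, Xirp1 and Xirp2 are actin-binding proteins of the intercalated disc and of growing myofibrils.

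The libraries held 15028176 to 21202385 reads in the table, and a level is the deposited signal, reads relative to a scaled library size. None of 12 ventricular cardiomyocyte markers was at 0 throughout a group, and their summed level was 71819 to 75492 in C, 45892 to 51794 in KO and 43271 to 73036 in DKO. For bulk tissue, fewer cells of a type and less RNA per cell cannot be told apart. Library DKO 2 stood apart, with 41.6% of its reads from the mitochondrial genome against 16.2% to 29.9% in the other libraries. Vhl mRNA itself was 7.91 ± 0.925 (SD) in C, 8.64 ± 0.450 in KO and 10.3 ± 1.43 in DKO, a whole-gene level that does not check the labels, since the deleted part of the gene is not given. Groups were compared with limma on log2(signal + 1) over all 8 libraries, with p-values adjusted by Benjamini-Hochberg over 13544 tested genes. All 10 genes passed the filter on low values, Ankrd2 with a level of at least 1 in 2 libraries only.

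Start-site windows of the genes whose levels differ most between the libraries are shown first, because Ankrd1 is known as a target of the YAP and TEAD transcription factors and TEAD factors bind the M-CAT element CATTCC. RefSeq windows on GRCm38.p6, each from 250 bases before to 50 bases after a start site, were found for 8 of the 10 genes, 12 windows in all. Capitals mark M-CAT elements on either strand, and in Xirp2 an AP-1 element (TGANTCA) and a MEF2 site. All are printed 5′ to 3′ along the minus strand, except Xirp2 along the plus strand.
Ankrd1, chr19:36119795-36120094: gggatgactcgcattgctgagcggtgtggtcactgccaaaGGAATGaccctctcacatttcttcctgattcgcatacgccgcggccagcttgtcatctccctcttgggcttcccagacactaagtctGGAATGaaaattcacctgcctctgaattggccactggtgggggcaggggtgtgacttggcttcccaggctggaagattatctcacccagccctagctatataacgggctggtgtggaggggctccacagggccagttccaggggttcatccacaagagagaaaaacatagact
Ankrd23, upstream start, chr1:36536507-36536806: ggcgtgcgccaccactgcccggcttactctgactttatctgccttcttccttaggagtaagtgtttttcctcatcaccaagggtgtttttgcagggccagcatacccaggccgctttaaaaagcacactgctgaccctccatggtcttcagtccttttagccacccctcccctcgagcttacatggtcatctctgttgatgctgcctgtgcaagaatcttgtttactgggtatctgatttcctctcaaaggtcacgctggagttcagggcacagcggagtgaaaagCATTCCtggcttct
Ankrd23, downstream start, chr1:36535690-36535989: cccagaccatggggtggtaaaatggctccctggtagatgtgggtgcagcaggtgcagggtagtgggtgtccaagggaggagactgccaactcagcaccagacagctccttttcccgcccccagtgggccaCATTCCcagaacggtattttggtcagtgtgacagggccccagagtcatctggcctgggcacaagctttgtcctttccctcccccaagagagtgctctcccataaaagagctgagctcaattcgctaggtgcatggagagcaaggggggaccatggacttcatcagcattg
Xirp2, chr2:67445752-67446051: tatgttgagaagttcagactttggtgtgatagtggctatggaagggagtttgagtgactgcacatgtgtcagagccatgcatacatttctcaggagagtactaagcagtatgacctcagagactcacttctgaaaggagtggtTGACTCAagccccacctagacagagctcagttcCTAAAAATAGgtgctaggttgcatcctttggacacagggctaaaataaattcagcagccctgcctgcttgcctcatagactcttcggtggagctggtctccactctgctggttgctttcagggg
The Ankrd1 window holds an M-CAT element at -210 to -205 and another at -123 to -118, counted from the start site at 1. Each of the Ankrd23 windows holds one, at 37 to 42 and at -120 to -115. M-CAT elements were in 3 of the 12 windows, all of these genes, and in 14.7% of 32851 windows of the same length. The Xirp2 window holds the AP-1 element at -107 to -101, the only 1 in the 12 windows (7.81% of all windows hold one). It also holds the MEF2 site at -74 to -65. MEF2 sites were in 2 of the 12 windows, the other in an Fhl2 window at -31 to -22, and in 3.19% of all windows. The hypoxia response core, searched as ACGTG or GCGTG on both strands, was in 4 of the 12 windows, of Ankrd23, Nrap and Fhl2, and in 43.8% of all windows. The SRF-binding CArG box was in both Fhl2 windows and 1 Fhl1 window, and in 1.63% of all windows. These matches describe letters and are not evidence of binding.

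Per length, the genes spanned a wide range in C. Signal per kb of the longest GENCODE transcript was 2190 ± 305 for Tcap, 784 ± 44.6 for Fhl2, 514 ± 32.2 for Csrp3, 192 ± 67.6 for Ankrd1 and 133 ± 27.9 for Ankrd23. It was 69.7 ± 6.39 for Nrap, 23.1 ± 3.04 for Fhl1, 22.6 ± 3.74 for Xirp2, 17.4 ± 1.45 for Xirp1 and 0.585 ± 0.388 for Ankrd2 (mean ± SD, n = 3 each). The C libraries of Ankrd1 (147 to 270) and Ankrd23 (104 to 160) overlapped on this scale, as did those of Fhl1 (20.2 to 26.3) and Xirp2 (19.96 to 26.8). All other neighbours in the order were separate. In KO the order changed at the top, with Ankrd1 at 1024 and 1563 per kb and Tcap at 954 and 1158 per kb, so that Ankrd1 overlapped Tcap. Ankrd2, the family member known mainly from slow skeletal muscle, rested on 3 to 41 reads per library.

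**Figure D1:**
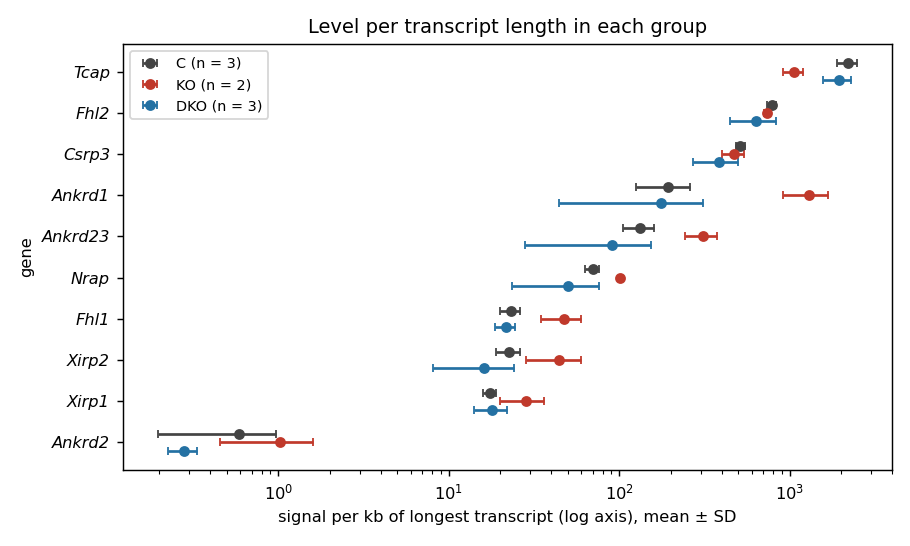
Signal per kb of the longest transcript (log axis) for the 10 genes in C (n = 3), KO (n = 2) and DKO (n = 3); points are group means and bars are SD. Tcap is the highest in C at 2190 per kb, and Ankrd1 moves from 192 in C to 1293 in KO.

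In KO against C, Ankrd1 and Fhl1 rose, Tcap fell, and the other 7 genes did not pass the test. Over all tested genes 6.9% rose and 7.01% fell (13.9% in either direction, 934 higher and 949 lower). The median log2 fold change was 0.60 over the 10 genes and 0.01 over all tested genes. The groups did not overlap for 6 genes that were higher and 1 that was lower in KO, where 27.5% of all tested genes did not overlap and were higher, and 26.7% lower (54.3% together). Library scaling weighs on these counts. With library totals in place of the deposited scaling factors the median of all genes moved to 0.49, with 4604 higher and 194 lower. With each library centred on the cardiomyocyte markers it moved to 0.50, with 1643 higher and 125 lower, so a value under either scaling is read against that shift.

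Ankrd1, a titin-binding and nuclear protein (ENSMUSG00000024803, chromosome 19, 36111961 to 36120099, GRCm38), had a level of 323.9, 545.1 and 296.0 in the C libraries. It had a level of 3156 and 2068 in the KO libraries and of 200.7, 202.9 and 663.6 in the DKO libraries. Both KO libraries lay above every other library, and DKO 3 lay above every C library while DKO 1 and DKO 2 lay below. Ankrd1 rose 6.82-fold in KO over C, a log2 fold change of 2.77 ± 0.46 (SE; limma, adjusted p = 0.00318). The rise was 3.26 on the log2 scale when libraries were centred on the cardiomyocyte markers (limma, adjusted p = 0.00109), where the median of all genes was 0.50.

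Ankrd23 (chromosome 1, 36530188 to 36536883), the diabetes-related member of the same family, was 237.7, 364.9 and 303.8 in C. Its level was 809.4 and 596.6 in KO, and 103.7, 146.1 and 367.8 in DKO. As for Ankrd1, both KO libraries were above all others and DKO 3 stood over DKO 1 and DKO 2. The KO to C difference of 1.22 ± 0.41 (SE) on the log2 scale missed the threshold (limma, adjusted p = 0.0684), and passed it without DKO 1 (adjusted p = 0.0323) or DKO 3 (adjusted p = 0.00580), where only the estimate of spread changes. It also passed in a fit of only the 2 groups (limma, adjusted p = 0.00126). The scalings by library totals, cardiomyocyte markers and quantiles, under which it passed too, are given with the settings at the end. A transcript model annotated on the same strand, Gm42417, shares 2109 exonic bases with Ankrd23, and how reads there were assigned is not known, so the Ankrd23 level is uncertain to that extent. Ankrd2 was 0.582, 0.271 and 1.14 in C and 1.63 and 0.711 in KO, overlapping groups at a depth where little can be detected (limma, adjusted p = 0.41).

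**Figure D2:**
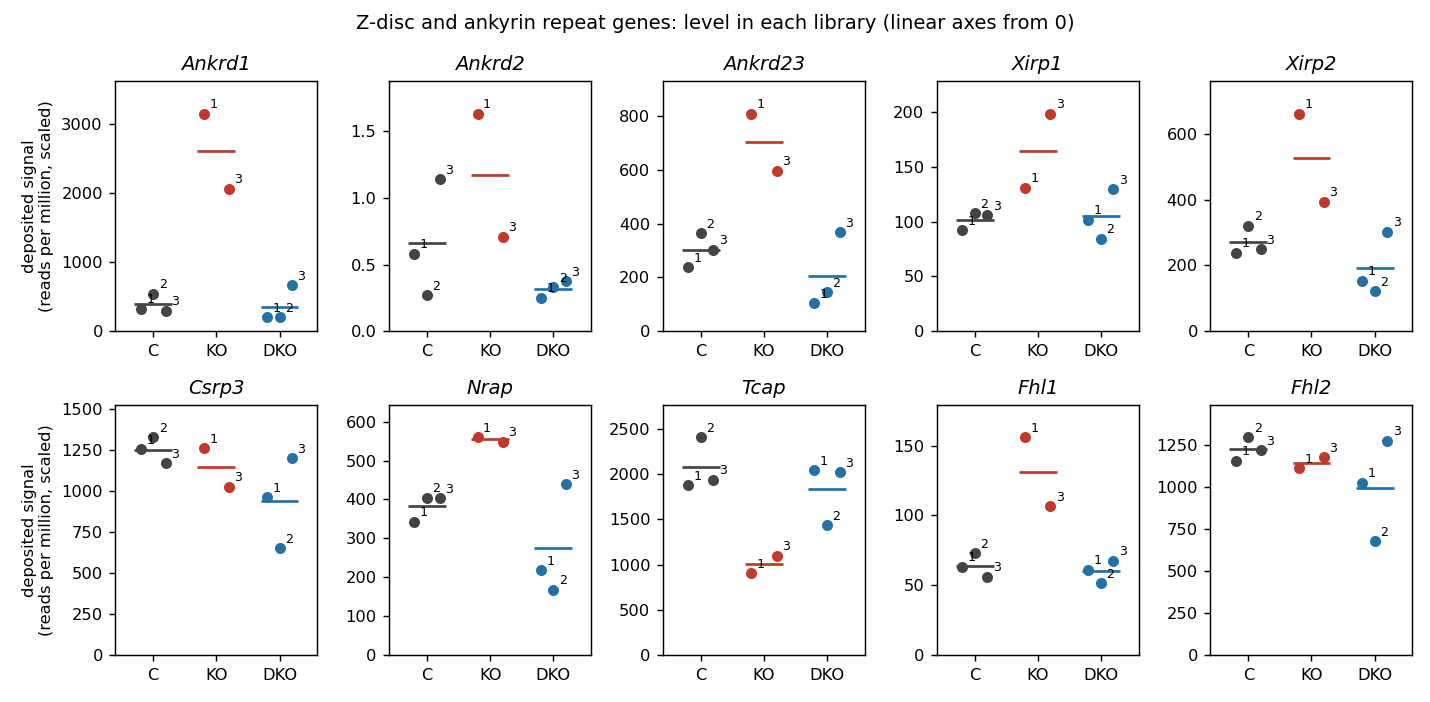
Deposited signal of each gene in each library (linear axes from 0), with numbers marking replicates and horizontal lines marking group means. Ankrd1 sits at 2068 and 3156 in KO and at 200.7 to 663.6 elsewhere, and Tcap at 904.8 and 1098 in KO and at 1434 to 2409 elsewhere.

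Xirp2 (chromosome 2, 67446002 to 67526614), which encodes an actin-binding protein with Xin repeats, was 239.1, 321.5 and 249.9 in C and 662.1 and 394.5 in KO. In the DKO libraries it was 153.7, 121.9 and 302.3. The KO libraries lay above all others but were far apart, and the difference of 0.93 ± 0.34 (SE) on the log2 scale did not pass (limma, adjusted p = 0.0906). It passed under 7 of 23 alternatives, among them without DKO 2 (limma, adjusted p = 0.0437) or DKO 3 (0.0215). The others were a fit of only the 2 groups (limma, adjusted p = 0.00844), quantile normalisation (0.0220), library totals (0.00944), cardiomyocyte centring (0.00927) and DESeq2 (0.0287). Xirp1 (chromosome 9, 120013755 to 120023598), the first Xin-repeat gene, was 92.1, 107.5 and 105.7 in C, 130.9 and 198.6 in KO, and 101.6, 84.5 and 129.5 in DKO. Here KO 3 was the highest library, where KO 1 was for Xirp2, and DKO 3 was just under KO 1. The difference from C was 0.66 ± 0.22 (SE; limma, adjusted p = 0.0642). This difference also passed under 7 of 23 alternatives, among them without DKO 2 (limma, adjusted p = 0.0278) or DKO 3 (0.0383). The others were a fit of only the 2 groups (limma, adjusted p = 0.0155), quantile normalisation (0.0317), library totals (0.00721), cardiomyocyte centring (0.00669) and DESeq2 (0.0250).

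Nrap (chromosome 19, 56320035 to 56390037), a nebulin-related anchoring protein of the intercalated disc, was 342.8, 404.5 and 402.8 in C and 559.6 and 548.8 in KO. It was 217.8, 167.4 and 439.7 in DKO. The KO libraries were close together and above all others, and the KO to C difference of 0.53 ± 0.32 (SE) did not pass (limma, adjusted p = 0.29). It passed under 4 of 23 alternatives. These were a fit of only the 2 groups (limma, adjusted p = 0.0117), cardiomyocyte centring (0.0130), library totals (0.0370) and quantile normalisation (0.0473). Of the exonic bases of Nrap, 268 are shared with Habp2 on the opposite strand, and the strand setting is not given in the sources used here.

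Tcap (ENSMUSG00000007877, chromosome 11, 98383811 to 98384953), the titin cap, moved the other way. It was 1880.3, 2408.5 and 1940.4 in C, 904.8 and 1098 in KO, and 2043, 1434 and 2025 in DKO. Both KO libraries were below all others, DKO 2 included. Tcap fell by 1.05 ± 0.27 (SE) on the log2 scale in KO against C (limma, adjusted p = 0.0231). The call ended without any 1 of the C libraries (adjusted p = 0.0680, 0.106 and 0.0721 without C 1, C 2 and C 3) and without KO 1 (0.168) or KO 3 (0.0999). It also ended with the trend of transcript length and GC content removed, where the change was -0.71 (adjusted p = 0.0982), and Tcap has the shortest transcript of the 10, 948 bases. The call ended as well with quantile normalisation (-0.60, adjusted p = 0.0538), cardiomyocyte centring (-0.56, adjusted p = 0.0565) and library totals (-0.51, adjusted p = 0.314). The median of all genes was -0.01, 0.50 and 0.49 under these scalings, in that order, and the last 2 values of Tcap are read against that shift. In all, 9 of 23 alternatives ended the call. Median centring kept it at -1.09.

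The LIM proteins split. Fhl1 (ENSMUSG00000023092, chromosome X, 56731787 to 56793346), a titin-binding LIM protein linked to hypertrophic signalling, was 63.0, 72.8 and 56.1 in C and 155.8 and 106.7 in KO. In DKO it was 61.1, 51.3 and 67.6, overlapping C. Fhl1 rose 2.01-fold in KO over C, a log2 fold change of 1.01 ± 0.20 (SE; limma, adjusted p = 0.00747). Without KO 1 the adjusted p was 0.0887. Fhl2, a LIM protein abundant in heart, had values of 1159 to 1298 in C, 1114 and 1180.3 in KO and 678.7 to 1279 in DKO. Csrp3, the muscle LIM protein, had values of 1169.9 to 1326 in C, 1025 and 1260.4 in KO and 650.2 to 1199 in DKO. For both the groups overlapped, with log2 differences between KO and C of -0.09 ± 0.27 (SE; limma, adjusted p = 0.85) for Fhl2 and -0.14 ± 0.27 (SE; limma, adjusted p = 0.79) for Csrp3. Their sign turned under quantile, library-total and cardiomyocyte scaling, so no direction is given. Under the last 2 of these the median of all genes was itself 0.49 and 0.50.

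**Figure D3:**
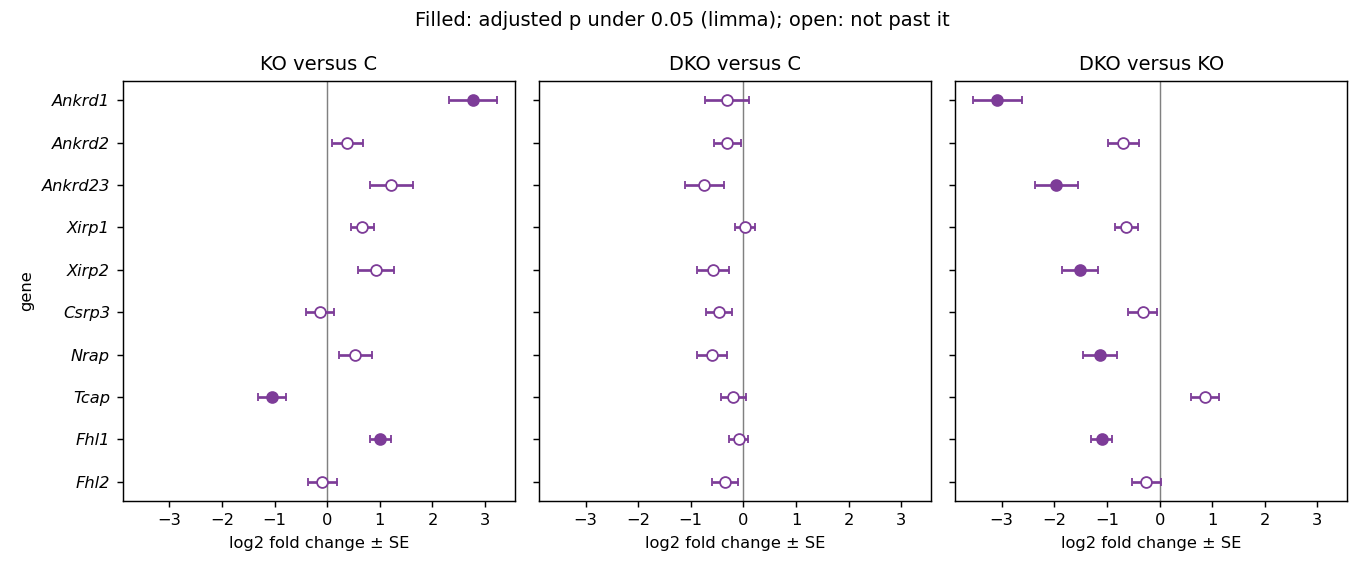
Log2 fold changes ± SE from limma for the 10 genes in 3 comparisons; filled points have an adjusted p under 0.05. Ankrd1, Fhl1 and Tcap are filled in KO versus C, none in DKO versus C, and Ankrd1, Ankrd23, Xirp2, Nrap and Fhl1 in DKO versus KO.

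In DKO against C, 0 of 10 genes changed in limma, and 0 had an unadjusted p under 0.05. The same count was 0 with edgeR, DESeq2 and voom on the reads recovered from the table. Over all tested genes 0.155% changed (21 genes), 0.0738% higher and 0.0812% lower. The median log2 fold change of the 10 genes was -0.33, against 0.01 over all tested genes, and the groups overlapped for each of the 10 genes, while of all tested genes 6.5% did not overlap and were higher and 7.25% lower (13.8% together). With cardiomyocyte centring the median of all genes was 0.34, with 5 higher and 0 lower. In 4 of the 10 genes DKO 1 and DKO 2 lay together, apart from DKO 3. Against the mean of C on the log2 scale, Ankrd1 was -0.89, -0.88 and 0.83 in DKO 1, DKO 2 and DKO 3, and Ankrd23 was -1.51, -1.02 and 0.30. Xirp2 was -0.80, -1.13 and 0.17, and Nrap was -0.81, -1.19 and 0.20. DKO 3 was thus above the mean of C in all 4 genes, and DKO 1 and DKO 2 below it. In Csrp3, Tcap, Fhl1 and Fhl2 DKO 1 was nearer to DKO 3, and DKO 2 was the lowest, at -0.94, -0.52, -0.31 and -0.85.

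Leaving out DKO 3 brought 2 genes past the threshold: Ankrd23 at -1.27 (limma, adjusted p = 0.0382) and Nrap at -0.998 (adjusted p = 0.0373). Without DKO 2 none passed. The Z-disc actinin gene Actn2, a cardiomyocyte marker, followed the same libraries, with 1143, 748.1 and 1734 in DKO 1, DKO 2 and DKO 3 against 1521 to 1726 in C. In KO Actn2 was 1204 and 1474, below every C library, which raises the ratios to Actn2 in KO. Per kb and relative to Actn2 of the same library, Xirp2 was 0.0338 to 0.0439 in DKO and 0.0384 to 0.0469 in C, and Nrap was 0.104 to 0.139 against 0.123 to 0.135. These ratios overlapped between DKO and C, and in KO they were 0.0673 and 0.138 for Xirp2 and 0.204 and 0.255 for Nrap, above every other library. The Xirp1 ratio was 0.0385 to 0.0583 in DKO, above the 0.0312 to 0.0333 of every C library, and overlapped the 0.0561 and 0.0695 of KO. Xirp1 itself overlapped between DKO and C, and the low Actn2 of DKO 1 and DKO 2 raises ratios there. In both libraries the ratios of Fhl1 (0.0582 and 0.0746 against 0.0372 to 0.0459 in C), Tcap, Csrp3 and Fhl2 were also above every C library. For Ankrd1 the ratio to Actn2 was 2.09 and 3.91 in KO, 0.270 to 0.471 in C and 0.262 to 0.571 in DKO. For Tcap it was 2.37 and 2.39 in KO, under the 3.71 to 6.09 of the other libraries.

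**Figure D4:**
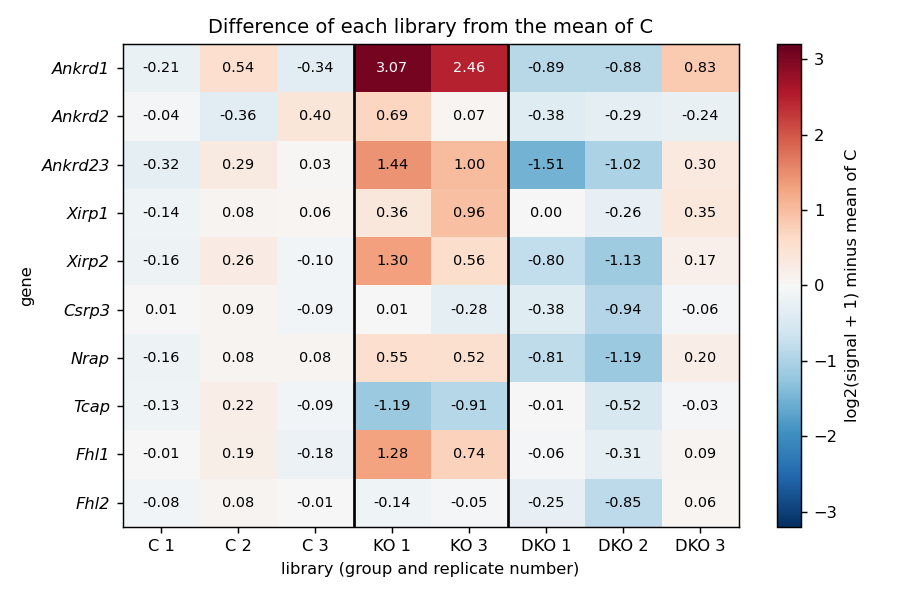
Log2(signal + 1) of each library minus the mean of the C libraries, for the 10 genes (rows) in 8 libraries (columns); red is above and blue below the mean of C. Ankrd1 reaches 3.07 in KO 1 and 2.46 in KO 3, while Ankrd1, Ankrd23, Xirp2 and Nrap are blue in DKO 1 and DKO 2 and red in DKO 3.

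In DKO against KO, 5 of 10 genes were lower and 0 higher, where 5.73% of all tested genes were lower and 6.08% higher (11.8% together). This comparison shares the KO libraries with KO against C and the DKO libraries with DKO against C, so its values stand beside those and are no separate observation. Ankrd1 was lower by a log2 fold change of -3.09 ± 0.46 (SE; limma, adjusted p = 0.00226), Ankrd23 by -1.96 ± 0.41 (adjusted p = 0.0112) and Xirp2 by -1.51 ± 0.34 (adjusted p = 0.0155). Fhl1 was lower by -1.10 ± 0.20 (limma, adjusted p = 0.00579) and Nrap by -1.13 ± 0.32 (adjusted p = 0.0392). The median of the 10 genes was -0.89, against 0.01 over all tested genes. The groups did not overlap for 7 genes lower and 1 higher in DKO, where 21.1% of all tested genes did not overlap and were lower, and 20.5% higher (41.5% together).

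Tcap was the gene higher in DKO, with a difference of 0.86 ± 0.27 (SE) that did not pass (limma, adjusted p = 0.0587). Its size depended on the scaling, at 0.20 with library totals (adjusted p = 0.690), 0.52 with quantile normalisation (0.0926) and 0.53 with length and GC trends removed (0.207). It passed under 5 of 23 alternatives: DESeq2 (adjusted p = 0.00118), voom (0.0403), no intensity trend (0.0273), a mean level of at least 5 (0.0465) and without DKO 2, at 1.03 (0.00610). Of the 5 calls, Ankrd1 alone stayed past the threshold without KO 1 (adjusted p = 0.0301). Without KO 1, Xirp2 had adjusted p = 0.151, Ankrd23 0.0988 and Fhl1 0.0705. Without KO 3, Ankrd23 had adjusted p = 0.0676. The Nrap call ended under 12 of 23 alternatives. Among these were leaving out any single library but DKO 3 (adjusted p from 0.0594 to 0.196), the replicate block (0.0687), edgeR (0.0620), median centring (0.0507), length and GC trends removed (0.0575) and a fit of only the 2 groups (0.102). With library totals the median of all genes moved to -0.58, with 206 higher and 5995 lower, and with cardiomyocyte centring to -0.15, with 97 higher and 302 lower.

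Of 33 further Z-disc genes, 8 rose in KO over C, 0 fell and 25 were not called, with a median log2 fold change of 0.26, where 6.9% of all tested genes rose and 7.01% fell. Synpo2l, a synaptopodin-like protein of the Z-disc, went from 118.9 ± 6.98 in C to 393.1 ± 115.5 in KO (limma, adjusted p = 0.00175), and the myotilin gene Myot from 12.3 ± 2.33 to 34.1 ± 5.98 (adjusted p = 0.0394), a call that ended under 10 of 23 alternatives. In DKO against KO 10 of the 33 were lower and 0 higher, where 5.73% of all tested genes were lower and 6.08% higher. In DKO against C 0 of the 33 changed, and 0.155% of all tested genes did. Of 28 intercalated disc and costamere genes 4 rose and 2 fell in KO over C, beside the same 6.9% and 7.01% of all tested genes. The vinculin gene Vcl went from 19.4 ± 2.26 to 59.4 ± 23.9 (limma, adjusted p = 0.00209) and the N-cadherin gene Cdh2 from 69.3 ± 7.52 to 131.7 ± 8.31 (adjusted p = 0.0267), the Cdh2 call ending under 7 of 23 alternatives. Itgb1bp2, encoding the stretch-sensing integrin partner melusin, fell from 192.8 ± 3.74 to 100.4 ± 2.49 (limma, adjusted p = 0.00746), and the sarcoglycan gene Sgca from 129.4 ± 6.38 to 69.3 ± 13.96 (adjusted p = 0.0185). The Itgb1bp2 call ended under 4 and the Sgca call under 7 of 23 alternatives, library totals and cardiomyocyte centring among them. In DKO against KO 5 of the 28 were lower and 1, Itgb1bp2, was higher, beside 5.73% and 6.08% of all tested genes.

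Genes of the YAP and TEAD pathway, which is known to act on Ankrd1, showed 8 of 19 rises in KO over C and 0 falls, with a median of 0.55. Over all tested genes 6.9% rose and 7.01% fell, shares that stand beside the lists below too. The list mixes factors, regulators and targets, so its rises do not give the activity of the pathway. Whether the pathway has a part in the Ankrd1 level was not tested. Ccn2, encoding connective tissue growth factor, went from 52.1 ± 14.1 to 186.1 ± 9.42 (limma, adjusted p = 0.000645), and Tgfb2 from 4.67 ± 0.754 to 16.5 ± 7.71 (adjusted p = 0.00362). In DKO against KO 5 of the 19 were lower (5.73% of all tested genes), and in DKO against C 0 changed (0.155% of all tested genes). Of 16 calcineurin and NFAT genes 1 rose in KO over C, a count near the share of all genes. It was Rcan1, a calcineurin regulator and NFAT target, from 77.1 ± 8.76 to 265.03 ± 122.6 (limma, adjusted p = 0.00380). Of 15 hypertrophy-associated genes 5 rose and 0 fell. Among the rises were the slow myosin gene Myh7, from 98.7 ± 23.4 to 1213 ± 8.99 (limma, adjusted p = 2.81e-05), Nppa, and Rcan1 again, which is in both lists. Myh6, not called, was 21610 to 24532 in C and lower, 11073 and 14230, in KO. Nppb was 174.1 to 195.2 in C and uneven in KO, 655.4 and 235.2. Among 7 paralogs of the 10 genes, 1 rose: Fhl3, from 5.87 ± 0.138 to 9.70 ± 1.502 (limma, adjusted p = 0.0309), a call that ended under 6 of 23 alternatives. Beside the share of all genes, 1 gene of so short a list says little.

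By the smallest root-mean-square difference over the 8 libraries, on the centred log2 scale and among 6605 genes, the gene nearest to Ankrd1 was Nppa, the atrial natriuretic peptide gene, at 0.27. Nppa was 220.3, 429.9 and 245.9 in C, 2423 and 1624 in KO, and 245.4, 194.5 and 427.9 in DKO. Like Ankrd1, Nppa had its highest value of each group in C 2, KO 1 and DKO 3. The atrial genes Myl7, Myl4, Sln and Dkk3 were also highest in C 2 and KO 1 within these groups, but lowest in DKO 3 among the DKO libraries. Whether atrial tissue in the samples has a part in the likeness of Ankrd1 and Nppa was not tested. The next were Tnfrsf12a (Fn14, the receptor of the cytokine TWEAK) at 0.52, the potassium channel subunit gene Kcne1 at 0.55, Uck2 at 0.56 and Rcan1 at 0.59. Tnfrsf12a was also the gene nearest to Ankrd23, at 0.28. Among the others, the nearest genes were Nqo1 for Xirp2 (0.20), Hspb7, encoding a small heat shock protein of the heart, for Nrap (0.08), and Cmbl for Tcap (0.08). They were Il13ra1 for Fhl1 (0.11), Klhl21 for Xirp1 (0.07), Emc2 for Csrp3 (0.04), Lrpprc for Fhl2 (0.06) and Inpp4b for Ankrd2 (0.18). Within the 10 genes, Csrp3 and Fhl2 were closest (0.12), then Xirp2 and Nrap (0.26) and Ankrd23 and Xirp2 (0.32). These distances describe 8 libraries that share group, depth and scaling, and genes that vary little lie close to many others.

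**Figure D5:**
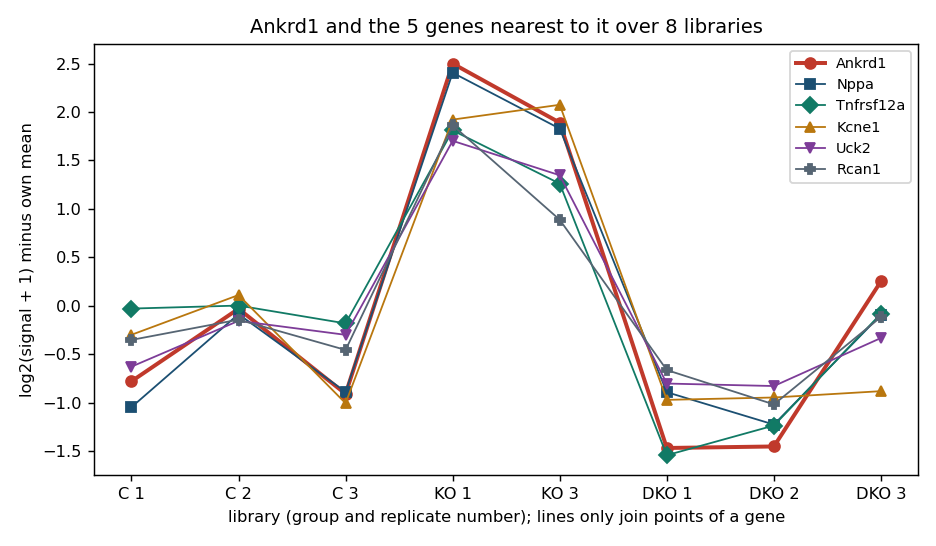
Log2(signal + 1) minus the gene's own mean over 8 libraries for Ankrd1 and the 5 genes nearest to it; the vertical axis is in log2 units and lines only join points of a gene. Nppa lies 0.27 from Ankrd1 by root-mean-square difference, and all 6 genes are highest in KO 1 and KO 3.

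Markers of other cells moved with the groups, and their part in these results was not tested. Of 16 skeletal muscle genes 13 fell in KO over C and 1, Casq1, rose, and 8 fell in DKO over C. Over all tested genes 6.9% rose and 7.01% fell in KO over C, shares that stand beside the marker counts below too. In DKO over C 0.0738% rose and 0.0812% (11 genes) fell. The skeletal muscle counts touch Tcap, Csrp3, Nrap, Xirp1, Xirp2, Fhl1 and Ankrd2, all known from skeletal muscle too. The summed level of the 16 was 4375 to 5419 in C, 3418 to 3959 in KO and 2461 to 4999 in DKO. Most of this sum was Ckm and Acta1, so it says little about the other genes. Ckm was 3703 to 4239 in C and 1447 and 1758 in KO, and Acta1 was 285.3 to 518.0 in C and 2393 and 1564 in KO. Atp2a1 was 11.6 to 81.3 in C, 0.138 and 0.191 in KO and 0.720 to 3.07 in DKO, and Myh2 and Myh4 were at 0 reads in KO. Myh4 was 66.5, 17.4 and 127.6 in C. Ankrd2 followed the same order in C, at 0.582, 0.271 and 1.14, on 9, 4 and 18 reads. Its highest library was KO 1, at 1.63 on 41 reads, where Myh4 was at 0 reads. Within C, Tcap, Csrp3, Nrap, Xirp1, Xirp2 and Fhl1 were highest in C 2, the C library with the lowest Myh4. So were Ankrd1, Ankrd23, Fhl2 and Actn2. For Nrap (404.5 against 402.8) and Xirp1 (107.5 against 105.7) C 2 and C 3 were nearly equal. An order of 3 libraries is weak, and the part of skeletal muscle was not tested. Of 12 fibroblast genes 5 rose in KO over C, with a summed level of 1263 to 2074 in C, 1968 to 2494 in KO and 1469 to 3687 in DKO. Of 8 atrial genes 1, Nppa, rose and 2, Kcnj3 and Stard10, fell, and the summed level, 304.6 to 643.3 in C, 1663 to 2528 in KO and 295.1 to 500.6 in DKO, was mostly Nppa in KO. Atrial genes were uneven within groups. Myl7 was 1.02 to 57.2 in C and Myl4 3.18 to 60.9, both highest in C 2. In KO 1 and KO 3 Myl7 was 26.6 and 0.988, and Myl4 33.6 and 2.48. In DKO they were 0.374 to 16.1 and 2.39 to 21.9, both lowest in DKO 3. Sln and Dkk3 had the same highest and lowest libraries, while Sbk2, Stard10 and Kcnj3 were higher in KO 3 than in KO 1. Of 12 ventricular cardiomyocyte genes 1 fell, Tnni3, from 6364 ± 382.9 to 2554 ± 7.85 (limma, adjusted p = 0.0211), a call that ended under 8 of 23 alternatives. Of 10 endothelial genes 1 fell, of 10 mural cell genes 0 changed, and of 8 macrophage genes 1 rose in KO over C.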

How the data were processed

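Poly(A) RNA from ventricles was measured by RNA sequencing, per the labels. GRCm38, limma, RSEM 1.3.1 and cutadapt are named in the submitters' processing notes; the sources used here give neither their roles nor the annotation or strand of counting. The deposited table holds a signal: each value is reads plus 0.5 over a scaled library size (factors as edgeR's TMM gives them), as read from the values, and whole reads were recovered for 100% of values (tolerance 0.001 reads). A count of 0 allows up to 3 reads, a signal of 0.104 to 0.283; such limits cover counting error only. Same-group libraries differed by more than sampling noise (chi-square per gene 13.7 to 256.1).

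The filter kept genes that reached 1 in 2 or more libraries, and limma 3.58.1 (R 4.3.3) tested them on log2(value + 1), which understates changes of low genes, in a model of 3 group means with an intensity trend and 5 residual degrees of freedom. The script was tested on simulated data. GENCODE M21 (GRCm38) gave positions and lengths of the longest transcript and matched 13666 of 13677 identifiers. The genes, the further lists and the promoter motifs were chosen with earlier results of these data known. All 10 genes are named; of each list, the 2 genes per direction with the largest change past an adjusted p of 0.05 were eligible, a part of which is given, and the genes nearest to each of the 10 by root-mean-square difference among genes at or above the median level (13.1). Alternatives used edgeR 4.0.16, DESeq2 1.42.0 and voom on the recovered reads.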

Additional observations from a re-analysis of the deposited data

How the results depend on the processing

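Over 23 alternatives, Ankrd1 kept its call in KO versus C (log2 2.46 to 3.31) and in DKO versus KO (-3.75 to -2.78). The number of the 10 genes called in KO versus C was 3 (13.9% of all genes), and became 6 with quantile normalisation (13.6% of all genes), with library totals (35.4%) and with cardiomyocyte centring (13.1%), 5 with DESeq2 (18.4%), 7 with only the 2 groups compared (26.6%), and 1 to 6 when a library was left out (1 without KO 1, where 5.78% of all genes were called, 5 without DKO 2 (21.9%) and 6 without DKO 3 (17.0%)). In DKO versus C it was 0 (0.155% of all genes) and became 0 to 2 without a library (2 without DKO 3, 0.665%). In DKO versus KO it was 5 (11.8% of all genes), and became 8 with library totals (45.8%) and 1 to 6 without a library (1 without KO 1, 4.45%, and 3 without KO 3, 2.47%). A single library left in KO was assumed to vary like the other groups.

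Over all genes, the 1883 calls in KO versus C became 4798 with library totals, 3606 with only the 2 groups compared and 449 to 2966 without a library (449 without KO 3, 783 without KO 1, 899, 1048 and 985 without C 1, C 2 and C 3, 2966 without DKO 2). The 21 in DKO versus C became 5 with cardiomyocyte centring, 69 with DESeq2, 7 with voom and 4 to 90 without a library (4 without C 1, 12 without C 3, 90 without DKO 3). The 1599 in DKO versus KO became 6201 with library totals, 399 with cardiomyocyte centring, 730 with only the 2 groups compared and 334 to 1991 without a library (334 without KO 3, 603 without KO 1). edgeR on the recovered reads called 2045, 25 and 1692 genes in the 3 comparisons. The cause of these moves was not tested.

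Passing in KO versus C, Ankrd23 had log2 1.60 (limma, adjusted p = 0.0197) with quantiles, 1.76 (0.00462) with library totals and 1.71 (0.0131) with cardiomyocyte centring. The median of all genes in KO versus C was -0.01, 0.49 and 0.50 under these scalings, in that order. Signs turned for genes that were not called. In KO versus C, Csrp3 was 0.40 with quantiles, 0.41 with library totals, 0.35 with cardiomyocyte centring and -0.28 to 0.0137 without a library, and Fhl2 was 0.44, 0.45 and 0.39 with these scalings and 0.0508 with the trend of length and GC removed. In DKO versus C, cardiomyocyte centring gave 0.0152 for Ankrd1, 0.0272 for Ankrd2, 0.14 for Tcap and 0.24 for Fhl1, where the median of all genes was 0.34. Xirp1 was -0.0896 with library totals, -0.12 with the trend of length and GC removed and -0.13 to 0.17 without a library, and Fhl1 was -0.18 to 0.0147 without a library.

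The replicate numbers did not pair the libraries: deviations of same-numbered libraries from their group means correlated at -0.27 to 0.22, and only DKO 3 among the DKO libraries correlated best with the C library of its own number. With the replicate number as a block, 1794, 21 and 1269 genes and 3, 0 and 4 of the 10 genes were called in KO versus C, DKO versus C and DKO versus KO. Depth limits Ankrd2 alone of the 10, at 3 to 41 reads.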
